A study of Mus musculus with 16 samples.

Results

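The interferon-inducible GTPases are proteins that bind and hydrolyse GTP, assemble on intracellular membranes and are made when a cell responds to interferon. The 10 genes described here were taken as a fixed list of symbols, Irgm1, Irgm2, Igtp, Tgtp1, Tgtp2, Iigp1, Ifi47, Gbp2, Gbp3 and Gbp7, and all 10 were found among the 55416 genes of the read-count table. The genes were chosen by their family and by their levels in Nprl3-/- against wild-type embryos, which were known when the list was made. Those differences are therefore given as a description, and nothing is read from how many were called.

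In mice this gene set falls into the immunity-related GTPases and the guanylate-binding proteins. Among the immunity-related GTPases, Irgm1, Irgm2 and Igtp are the regulatory members, which sit on the cell's own membranes and hold the effector members inactive there. Tgtp1, Tgtp2, Iigp1 and Ifi47 are effector members, which load onto the vacuoles of intracellular pathogens. Guanylate-binding proteins are larger GTPases that are recruited to the same vacuoles, and the loading of both families depends on the ATG8 conjugation machinery of autophagy. Interferon acts on these genes through receptors, Janus kinases and transcription factors of the STAT and IRF families, which bind interferon-stimulated response elements and gamma-activated sites in promoters.

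Poly(A)+ RNA came from erythroblasts of E13.5 foetal livers, sorted on Ter119 and CD71 into an early (S1) and a later (S3) erythroid stage. There were 4 wild-type embryos (WT, Nprl3+/+: females 1 and 5, males 0 and 8), 2 heterozygotes (Het, Nprl3+/-: males 3 and 4) and 2 knockouts (KO, Nprl3-/-: female 2 and male 9). Nprl3 encodes a subunit of GATOR1, which restrains the growth kinase complex mTORC1 when amino acids are scarce, and the knockout allele was a constitutive deletion of its promoter, present in every cell of the embryo. Each embryo gave 1 library per stage, which makes 16 libraries from 8 embryos, and replicates are separate embryos.

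Total counts ran from 20666044 to 37609502 per library. Nprl3 itself had 13 and 32 raw counts in the KO libraries at S1 against 881 to 1588 in WT and 452 to 605 in Het, and 1730 and 2069 at S3 against 2953 to 3883 in WT and 2631 and 2300 in Het. Enhancer-derived transcripts that cover Nprl3 do not need its promoter, by the study's account, so the S3 counts do not check the genotype labels. All 9 erythroblast markers examined were detected in every group, and all 9 were called higher at S3 than at S1 in WT. The S1 libraries of WT embryos 0 and 8, the WT males, stood apart. Their summed level of 10 neutrophil genes was 6044 and 3705 normalized counts, against 34071 and 39462 in WT embryos 5 and 1, 46855 and 47323 in Het and 48507 and 50916 in KO. Their summed level of the 9 erythroblast genes was 173033 and 175767, against 48928 to 74902 in the other S1 libraries, and that of 10 hepatoblast genes 8760 and 8392, against 666 to 4357. Sex and these differences cannot be told apart among the WT embryos. In sorted bulk samples, fewer cells of a type and less RNA per cell cannot be told apart.

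Of the 10 genes, 9 lie in 3 groups of neighbours on chromosomes 3 and 11. On the mm39 (GRCm39) build used for the counts, Gbp7 (chr3:142236103-142255910), Gbp3 (chr3:142265787-142278970) and Gbp2 (chr3:142326363-142343769) follow each other on the plus strand. Irgm1 (chr11:48752795-48762510), Tgtp1 (chr11:48876154-48884999) and Tgtp2 (chr11:48948021-48955033) are on the minus strand of chromosome 11, and Ifi47 (chr11:48967414-48987801) lies beside them on the plus strand. Igtp (chr11:58090382-58098417) and Irgm2 (chr11:58090444-58113608) overlap on the plus strand and share 162 exonic bases.

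Promoters of 9 of the 10 genes were searched in windows of 300 bases, from 250 before to 50 after the RefSeq start site (sequences from RefSeq, table build GRCm38.p6, placed on GRCm39 by exact match). The core of the interferon-stimulated response element was written GAAANNGAAA (TTTCNNTTTC on the other strand), and the gamma-activated site TTCNNNGAA, which reads the same on both strands. Of the 9 genes, 8 held the core, against 3.4476% of all 32544 promoters, and 5 held the gamma-activated site, against 8.3272%. A gene was counted once over all its windows, whereas the shares are over distinct windows. Both motifs occurred together in Gbp7, Igtp, Irgm2, Tgtp1 and Tgtp2, and in 148 promoters (0.4548%) overall. The stretches below show the core in each of the 8 genes, in capitals together with any gamma-activated site beside it, 5′ to 3′ on the strand of the gene, because the genes are compared by what they share besides their levels.
Irgm1, chr11:48762257-48762282, minus strand: ttcaaGAAATAGAAACCGAAActgat
Irgm2, chr11:58105724-58105763, plus strand: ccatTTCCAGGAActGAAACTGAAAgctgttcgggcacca
Igtp, chr11:58090333-58090372, plus strand: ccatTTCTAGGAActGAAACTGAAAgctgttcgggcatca
Tgtp1, chr11:48883126-48883165, minus strand: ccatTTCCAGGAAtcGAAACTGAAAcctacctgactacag
Tgtp2, chr11:48955085-48955124, minus strand: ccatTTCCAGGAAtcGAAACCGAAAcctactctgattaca
Gbp2, chr3:142326350-142326389, plus strand: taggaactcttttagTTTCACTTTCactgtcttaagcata
Gbp3, chr3:142265745-142265784, plus strand: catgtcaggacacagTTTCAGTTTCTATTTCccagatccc
Gbp7, chr3:142236029-142236068, plus strand: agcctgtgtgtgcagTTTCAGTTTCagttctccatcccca

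In Irgm2, Igtp, Tgtp1 and Tgtp2 the gamma-activated site ended 2 bases before the core, whereas in Gbp7 the nearer of its 2 sites ended 25 bases before it. Irgm1 and Gbp3 each held 2 overlapping matches to the core. In the annotation used for the counts, the stretch of Irgm1 lies within an exon, 27 bases of that of Gbp2 lie in its first exon, and those of Irgm2 and Tgtp1 lie between exons, inside the bounds of the gene. No match to either motif was found in the Ifi47 window, and none in a second RefSeq window of Gbp3. A match describes letters in a window and no binding was measured.

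**Figure D1:**
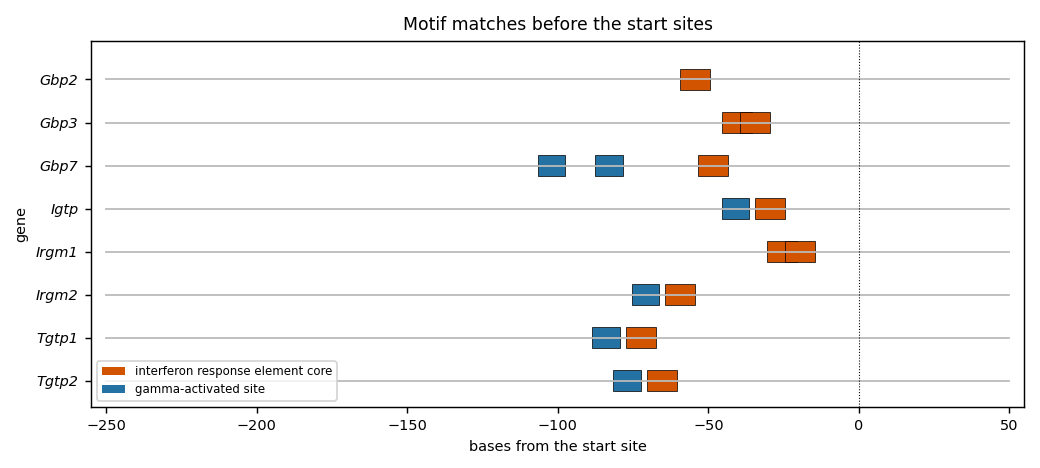
Positions of the motif matches in the 8 promoter windows that held any (x axis, bases from the RefSeq start site at 0; 1 line per gene). Orange bars are the interferon response element core and blue bars the gamma-activated site, which stand 2 bases apart in Irgm2, Igtp, Tgtp1 and Tgtp2.

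Iigp1, the gene outside these groups of neighbours, is on chromosome 18. Some of the genes share sequence, which affects their counts because multi-mapped reads were not counted. Of all 150-base windows along their transcripts, 66.6% of those of Tgtp1 and 68.4% of those of Tgtp2 also occurred in another gene, mostly in each other. The levels of this pair are therefore uncertain. For Gbp7 the share was 9.64%, for Ifi47 it was 3.57%, and for the other 6 genes it was under 2%. Reads over exonic bases shared by overlapping genes were not counted either, which concerns 637 bases of Gbp7 (11.3% of its exonic length), 223 of Tgtp1 (6.96%), 217 of Ifi47 (8.77%), the 162 that Igtp (8.01%) and Irgm2 (4.39%) share, and 24 of Gbp2.

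Levels between genes were compared as RPKM (reads scaled to exon length and library size). Irgm1 had the highest level in WT at both stages, 8.40 ± 2.32 at S1 and 14.6 ± 7.22 at S3 (mean ± SD, n = 4), followed by Igtp at 2.27 ± 0.602 and 11.6 ± 6.30 RPKM. The levels of these neighbours in the order overlapped at S3, where Irgm1 ran from 7.94 to 24.8 RPKM and Igtp from 6.09 to 20.5 RPKM, and not at S1. Ifi47 (1.54 ± 0.638) and Gbp7 (1.26 ± 0.401) came next in WT at S1. They overlapped each other (0.792 to 2.23 and 0.880 to 1.634 RPKM) and Igtp (1.617 to 2.82 RPKM). Irgm2 had the third level at S3 (2.63 ± 1.02). Tgtp2 had 0.4997 ± 0.340 RPKM at S1 and 0.0990 ± 0.0855 RPKM at S3. The remaining genes, Tgtp1, Iigp1, Gbp2 and Gbp3, had at most 0.254 RPKM in any WT library.

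The sum over the 10 genes was 10.5 to 18.7 RPKM in WT, 14.6 and 21.3 RPKM in Het and 63.4 and 29.4 RPKM in KO embryos 2 and 9 at S1. At S3 it was 16.8 to 51.7 RPKM in WT, 39.2 and 65.8 RPKM in Het and 309.3 and 154.8 RPKM in KO embryos 2 and 9. The KO embryos had the highest sums at both stages, and embryo 2 was above embryo 9 at each. The make-up differed between stages. Irgm1 took 47.8% to 65.1% of the sum at S1 in all genotypes, with Igtp at 12.3% to 18.3%, whereas at S3 Igtp took 35.3% to 48.8%. In both KO libraries at S3, and in none of the other 14 libraries, the share of Igtp was larger than that of Irgm1.

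**Figure D2:**
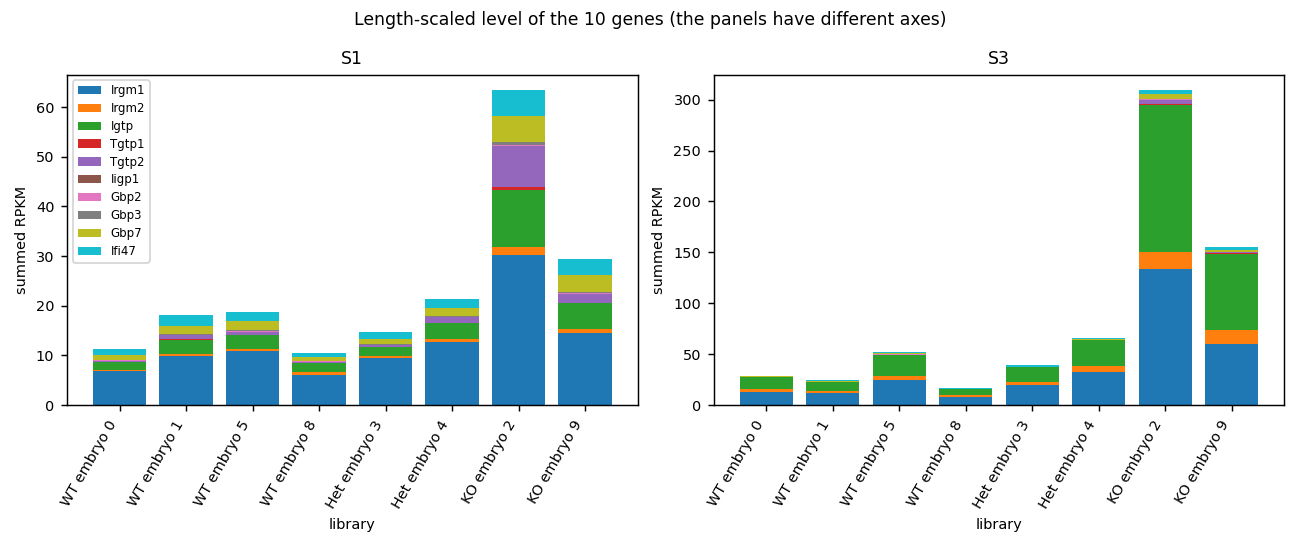
Summed RPKM of the 10 genes in each library at S1 (left) and S3 (right, on a larger axis), stacked by gene. Irgm1 and Igtp make up most of each S3 bar, and the KO bars (63.4 and 29.4 at S1, 309.3 and 154.8 at S3) are the highest of each stage.

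The first comparison set the KO erythroblasts against WT at S3. In the following, levels of one gene across libraries are normalized counts, scaled to a library of 30833447 counts, and are given for WT embryos 0, 1, 5 and 8, Het embryos 3 and 4 and KO embryos 2 and 9 in that order. Irgm1, which regulates effector GTPases and is also needed for haematopoietic stem cell maintenance under interferon, had 2374, 2194, 4447 and 1422 in WT, 3515 and 5889 in Het and 23952 and 10679 in KO. Igtp, the regulatory member of the endoplasmic reticulum and lipid droplets, had 701, 535, 1279 and 379 in WT, 920.1 and 1568 in Het and 9039 and 4706 in KO. Irgm2, a regulatory member of the Golgi, had 322, 212, 454 and 208 in WT, 293 and 623 in Het and 1863 and 1562 in KO. For all 3 regulatory genes both KO embryos lay above each WT and Het embryo, and WT embryo 5 was the highest of the WT.

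Among the effectors at S3, Tgtp2 had 7.94, 5.66, 20.04 and 2.23 in WT, 8.99 and 11.8 in Het and 409 and 97.5 in KO. Its near copy Tgtp1 had 6.62, 1.41, 1.18 and 2.23 in WT, 0 and 0 in Het and 27.4 and 8.71 in KO. Ifi47 had 47.6, 73.6, 73.1 and 51.3 in WT, 109.6 and 86.2 in Het and 272 and 193 in KO. Both KO embryos were above every WT and Het embryo for each of these effectors, with the smallest gap for Tgtp1. Iigp1 was barely detected, at 9.26, 2.83, 1.18 and 0 in WT, 0 and 5.07 in Het and 15.7 and 13.9 in KO, where each KO value rested on 8 raw counts.

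Of the guanylate-binding proteins at S3, Gbp7, which has been tied to NADPH oxidase assembly, had 66.2, 38.2, 166 and 20.1 in WT, 62.9 and 147 in Het and 904 and 303 in KO. Gbp2, a prenylated member, had 11.9, 12.7, 16.5 and 4.46 in WT, 5.39 and 6.76 in Het and 21.5 and 20.9 in KO. Gbp3 had 22.5, 15.6, 5.89 and 8.93 in WT, 25.2 and 11.8 in Het and 25.4 and 20.9 in KO, and was the only one of the 10 genes whose KO and WT values overlapped. The other 9 were higher in both KO embryos than in all WT embryos. Tgtp1, Iigp1 and Gbp2 are among them but had too few counts to be tested. Of the 7 genes tested, 6 showed this pattern, as did 9.18% of all genes tested.

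At S3, 7 of the 10 genes passed the filter on low counts, and edgeR's quasi-likelihood test called 5 of them (adjusted p under 0.05), all higher in KO, in a comparison in which 0.457% of 11804 genes were called higher. The log2 fold changes with their standard errors were 4.69 ± 0.69 for Tgtp2, 3.26 ± 0.43 for Igtp, 2.74 ± 0.43 for Irgm1, 2.52 ± 0.29 for Irgm2 and 1.92 ± 0.28 for Ifi47. Gbp7 (3.02 ± 0.67) and Gbp3 (0.80 ± 0.57) were not called. The filter was a mean above 10 counts normalized over the libraries of the comparison, which is not the scale of the levels printed above. Tgtp2 passed it only through the KO embryos (mean of 8.97 in WT on the printed scale), so its presence among the tested genes depends on the difference it shows. Gbp3 was near the limit as well. It was not tested without KO embryo 2, without WT embryo 0, or in Het against WT at S3. The median over the 7 was 2.74, beside 0.01 over all genes tested. Nothing is read from this median, since the genes were chosen with these differences known. No member was called without WT embryo 0 or without WT embryo 8, nor without both. Without WT embryo 1, 1 (Irgm2) was called, and without WT embryo 5, 4 were. The share of all genes called in either direction fell as well. It was 0.559% with all embryos, 0.0944% without WT embryo 0, 0.0921% without WT embryo 8 and 0.0424% without both. Without WT embryo 1 it was 0.229%, and without WT embryo 5 it was 0.359%. Without WT embryo 0 the log2 fold changes were 2.69 for Irgm1, 2.55 for Irgm2 and 3.23 for Igtp. Without KO embryo 2, which had the higher KO levels, they were smaller, at 3.32 for Tgtp2, 2.02 for Gbp7 and 2.04 for Irgm1.

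Within each sex at S3, the KO female was above both WT females for 10 of 10 genes, as for 33.6% of all genes tested, and the KO male above both WT males for 9 of 10, as for 37.8%. The shares are over genes that passed the filter, and Tgtp1, Iigp1 and Gbp2 did not. Igtp in the KO female was 9.97 times the mean of the WT females, and in the KO male 8.71 times that of the WT males. Irgm2 was 5.60 and 5.91 times, and Tgtp2 31.8 and 19.2 times. The WT females also had a higher mean level than the WT males for each of these genes.

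Cell type markers were read at S3 as well. All 9 erythroblast genes had a log2 fold change under 0 in KO (median -0.23, 0 called), and their sum was 3018170 and 3211470 normalized counts in KO embryos 2 and 9, below every WT (3454290 to 4248410) and Het (3678980 and 4039350) library. The summed level of 15 macrophage genes was 820 to 1196 normalized counts in KO against 1679 to 3313 in WT and 1676 to 2374 in Het, with 3 of 14 tested called lower in KO and Cd163 at 0 in the KO and Het libraries. That of 10 hepatoblast genes was 2134 and 6359 in KO embryos 2 and 9 against 4904 to 23652 in WT and 3664 to 5056 in Het, and all 10 had a log2 fold change under 0 (median -1.47, 0 called). Megakaryocyte genes, 8 in all, summed to 1891 and 3764 in KO embryos 2 and 9 against 1745 to 3122 in WT and 1777 to 1789 in Het, and 6 of the 7 tested had a log2 fold change above 0 (median 0.74, 0 called). The neutrophil sum was 34.2 to 149.5 in WT and 48.9 and 422 in KO embryos 2 and 9, with Ly6g at 0 in all libraries and 0 of the 2 tested called. The part of these differences in the result was not tested.

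**Figure D3:**
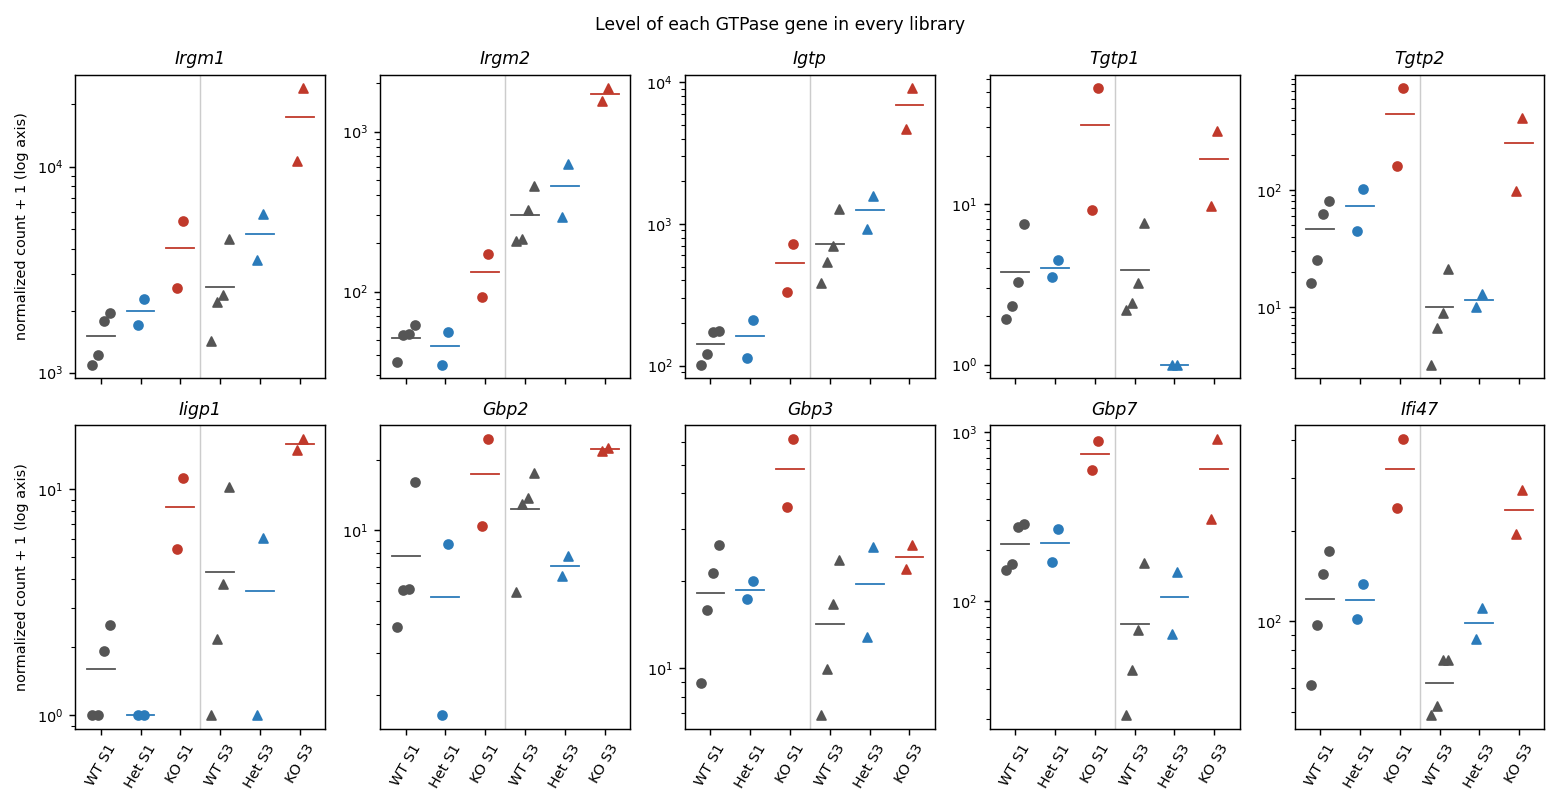
Normalized count plus 1 (log axis) of each gene in all 16 libraries, by genotype and stage; circles are S1, triangles S3, and each bar is the group mean. The KO points lie above all WT points of the same stage in 9 of 10 genes at S1 (all but Gbp2) and in 9 of 10 at S3 (all but Gbp3).

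KO and WT erythroblasts were compared in the same way at S1. Irgm1 had 1211, 1773, 1939 and 1093 normalized counts in WT, 1706 and 2283 in Het and 5425 and 2586 in KO. Igtp had 101, 176, 172 and 119 in WT, 112 and 208 in Het and 723 and 329.6 in KO. Irgm2 had 35.2, 52.8, 53.4 and 61.1 in WT, 34.0 and 55.1 in Het and 171 and 91.1 in KO. For the regulatory genes both KO embryos lay above each WT and Het embryo at S1 too, and the Het values overlapped those of WT.

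Tgtp2 at S1 had 24.1, 80.2, 61.7 and 15.1 in WT, 43.5 and 102 in Het and 741 and 160.1 in KO. Tgtp1 had 0.925, 6.504, 2.26 and 1.31 in WT, 2.52 and 3.44 in Het and 51.4 and 8.23 in KO. Ifi47 had 96.2, 169.8, 143 and 60.4 in WT, 101 and 132 in Het and 401 and 237 in KO. In KO embryo 2 the pair Tgtp1 and Tgtp2 stood further above KO embryo 9 than the other genes did. Iigp1 had 0.925, 0, 1.505 and 0 in WT, 0 and 0 in Het and 10.3 and 4.43 in KO.

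Gbp7 at S1 had 164, 272, 283 and 152 in WT, 169.6 and 267 in Het and 881 and 592 in KO. Gbp3 had 14.8, 20.2, 25.6 and 7.88 in WT, 18.9 and 16.4 in Het and 60.2 and 34.8 in KO. Gbp2 had 4.63, 2.89, 15.05 and 4.60 in WT, 0.630 and 7.75 in Het and 23.5 and 9.49 in KO, and was the gene whose KO and WT values overlapped, since WT embryo 5 exceeded KO embryo 9. The other 9 of the 10 genes were higher in both KO embryos than in all WT embryos. Iigp1 is among them but had too few counts to be tested. Of the 9 genes tested, 8 showed this pattern, as did 6.57% of all genes tested.

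Of the 9 genes tested at S1, none was called by edgeR, which called 0% of all 14039 genes higher. An unadjusted p under 0.05 was found for 8 of the 9, as for 2.53% of all genes, and DESeq2 called 3 (Igtp, Tgtp2 and Gbp7), beside 0.254% of all genes. With sex as a covariate, edgeR called 4 (Irgm1, Igtp, Tgtp2 and Gbp7), beside 0.15% of all genes, and DESeq2 called 7, beside 1.2%. The log2 fold changes ran from 1.26 ± 0.71 for Gbp2 to 3.36 ± 0.87 for Tgtp1, with 1.89 ± 0.36 for Igtp, 1.76 ± 0.33 for Gbp7 and 1.41 ± 0.34 for Irgm1, and had a median of 1.47 beside -0.01 over all genes. Tgtp1 (mean of 2.75 in WT) and Gbp2 (6.79) passed the filter only through the KO embryos, and without KO embryo 2 Tgtp1 was not tested. They had to be high in KO to be counted among the 9, and nothing is read from that count or from the median. Without KO embryo 2 the values were 1.82 for Tgtp2, 1.22 for Igtp, 0.79 for Irgm1 and 0.49 for Gbp2.

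Within each sex at S1, KO was above both WT embryos for 10 of 10 genes in the female and in the male, as for 36.7% and 28.1% of all genes tested. Iigp1 is among the 10 but was not tested. The WT males 0 and 8 had the lowest WT levels of Irgm1, Igtp, Tgtp1, Tgtp2, Gbp3, Gbp7 and Ifi47 at S1, and these are the libraries with the low neutrophil sums. In KO against WT at S1 all 9 neutrophil genes tested had a log2 fold change above 0 (median 0.83, 0 called). None of the 10 hepatoblast genes (median -0.90) and 1 of the 9 erythroblast genes (median -0.56) had one above 0, with 0 called in either list. The macrophage sum at S1 was 2109 and 2146 in KO against 1032 to 1749 in WT and 1117 to 1625 in Het, while only 4 of the 14 tested had a log2 fold change above 0 (median -0.72, 0 called). The part of these differences in the result was not tested.

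**Figure D4:**
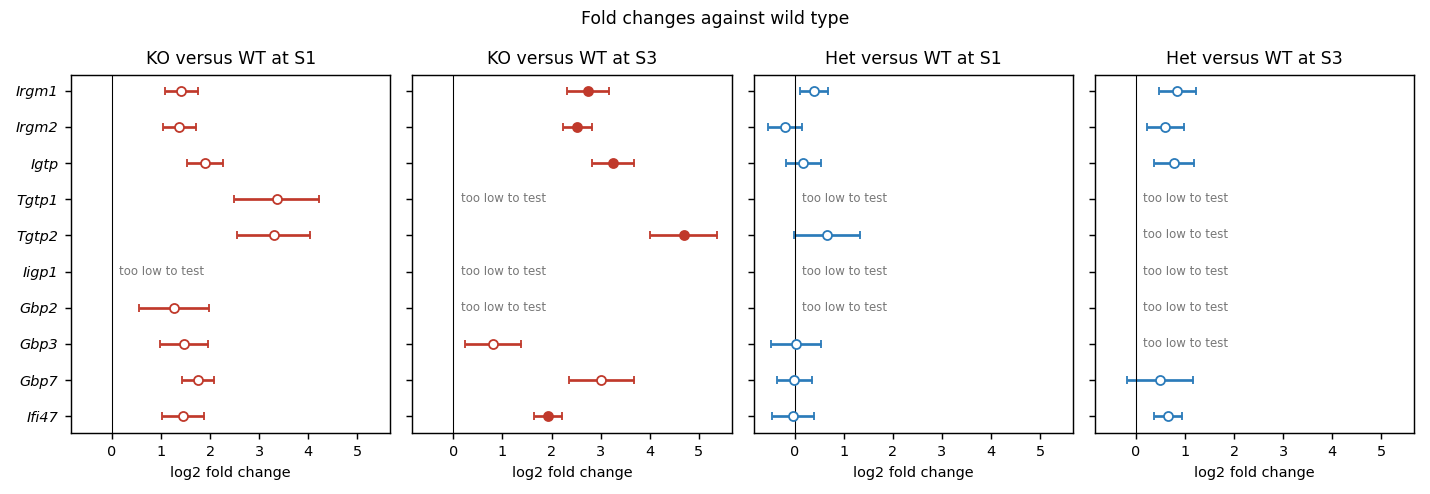
Log2 fold change against WT with its standard error for each gene that passed the filter on low counts, in KO (red) and Het (blue) at each stage. Filled points had an adjusted p under 0.05 (the 5 genes Irgm1, Irgm2, Igtp, Tgtp2 and Ifi47, in KO at S3), and the Het values lie nearer to 0 than those of KO.

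The Het embryos address whether loss of 1 copy moves these genes. The Het and KO comparisons share their WT embryos. At S3, 5 of the 10 genes were tested in Het against WT and none was called, where edgeR called 0% of 11746 genes. None had an unadjusted p under 0.05, which 3.18% of all genes had, and DESeq2 called none. All 5 log2 fold changes were above 0, namely 0.84 ± 0.38 for Irgm1, 0.77 ± 0.41 for Igtp, 0.65 ± 0.29 for Ifi47, 0.60 ± 0.37 for Irgm2 and 0.48 ± 0.67 for Gbp7, and 46.8% of all genes were above 0. Ifi47 was the only one of the 10 genes with both Het values above all WT values, which 6.96% of genes showed. Tgtp1, too low to be tested, was the only one with both below (0 and 0 against 1.18 to 6.62 in WT), which 6.26% of genes showed. Het embryo 4 was above Het embryo 3 for the regulatory genes, and above every WT embryo for Irgm1, Irgm2 and Igtp. Without Het embryo 4 the value of Irgm2 was -0.05 and that of Gbp7 was -0.26, so their direction rested on that embryo.

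Both Het embryos were male. The WT males are embryos 0 and 8, whose S1 libraries stood apart, and at S3 their hepatoblast sums (23652 and 14967) were above those of WT embryos 5 and 1 (4904 and 6940) and of Het (3664 and 5056). The part of this difference in the following values was not tested. Against the WT males alone at S3, an alternative chosen after the data were seen, Irgm1 (log2 fold change 1.30, adjusted p = 0.0103) and Igtp (1.17, adjusted p = 0.0215) were called by edgeR, in a comparison in which 20.7% of all genes were called. The Het mean was 2.48 times the WT male mean for Irgm1 and 2.30 times for Igtp, and both Het embryos were above both WT males for 4 of the 10 genes, as for 31.3% of all genes tested. Tgtp2 is among the 4 but was not tested in Het at S3. With sex as a covariate edgeR called Irgm1 alone, and 18.1% of all genes.

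At S1, 7 of the 10 genes were tested in Het and none was called, where edgeR called 0% of 13818 genes, and none had an unadjusted p under 0.05, which 4.26% of all genes had. DESeq2 called none without sex as a covariate and 1 (Tgtp2) with it, beside 0.189% and 4.73% of all genes. The log2 fold changes ran from -0.19 ± 0.35 for Irgm2 to 0.66 ± 0.67 for Tgtp2. None of the 10 genes had Het values wholly above or below those of WT (10.6% and 8.22% of all genes tested), and both Het embryos were above both WT males for 6, as for 29.6% of all genes tested. Tgtp1 is among the 6 but was not tested in Het at S1. The standard errors, 0.28 to 0.67, leave room for differences in either direction.

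Maturation from S1 to S3 in WT went with higher levels of some genes and lower levels of others. The regulatory genes Irgm2 and Igtp rose, by 2.57 ± 0.31 (adjusted p = 4.25e-05) and 2.35 ± 0.37 (adjusted p = 2.81e-04) on the log2 scale, and their S3 libraries all lay above their S1 libraries, as in 28.6% of all genes. The effectors Tgtp2 (-2.25 ± 0.69, adjusted p = 0.0147) and Ifi47 (-0.94 ± 0.36, adjusted p = 0.0401) fell, as did Gbp7 (-1.55 ± 0.54, adjusted p = 0.0262). The other effectors, Tgtp1 and Iigp1, were too low to be tested, and each was higher at S3 in 2 of the 4 WT embryos. Irgm1 had a value of 0.79 ± 0.33 (adjusted p = 0.0578) and Gbp3 one of -0.36 ± 0.52 (adjusted p = 0.563), both from the same edgeR test. Of the 7 genes tested, 2 were thus called higher and 3 lower, where 30.6% of 13514 genes were called higher and 35% lower. The calls of Irgm2 and Igtp held without any 1 WT embryo, while 3 genes in all were called without WT embryo 0 (with Tgtp2) and 2 without WT embryo 1. Irgm1 was called as well, which gave 6, with the embryo as a replicate block (adjusted p = 0.00476), in DESeq2 (0.0421), with relative log expression factors (0.0474), without the filter on low counts (0.0363) and without WT embryo 8 (0.0237). Tgtp2 passed the filter here only through S1, where it was higher (mean of 45.3, against 8.97 at S3).

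All 8 embryos had higher Irgm1, Irgm2 and Igtp at S3 than at S1. The log2 ratio of S3 to S1 for Igtp was 2.79, 1.601, 2.89 and 1.67 in WT embryos 0, 1, 5 and 8, 3.02 and 2.91 in Het embryos 3 and 4 and 3.64 and 3.83 in KO embryos 2 and 9 (normalized counts plus 1). For Irgm1 it was 0.97, 0.31, 1.20 and 0.38 in WT, 1.04 and 1.37 in Het and 2.14 and 2.05 in KO. The ratios of these genes were larger in KO than in any WT or Het embryo. For Irgm2 the ratio was 3.16, 1.99, 3.06 and 1.75 in WT, 3.07 and 3.48 in Het and 3.44 and 4.09 in KO, so KO embryo 2 was below Het embryo 4. Tgtp2 was lower at S3 in all 8 embryos, with ratios of -1.49, -3.61, -1.58 and -2.32 in WT and -0.85 and -0.71 in KO, with both Het ratios inside the WT range. Gbp7 was lower at S3 in 7 of the 8, the exception being KO embryo 2 at 0.04, and Ifi47 in 7 of the 8, the exception being Het embryo 3 at 0.12.

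Other cell types differed between these stages as well. In WT, all 9 neutrophil genes tested of 10 were called lower at S3, with sums of 34.2 to 149.5 against 3705 to 39462 normalized counts at S1, and 11 of 14 macrophage genes tested were called higher, with sums of 1679 to 3313 against 1032 to 1749. All 4 lymphoid and natural killer genes tested of 8 were called lower, with sums of 2.23 to 37.1 against 207 to 1709, and 4 of 10 hepatoblast genes were called higher, with 9 above 0. Their part in the stage differences of the GTPase genes was not tested. Whether the KO difference was unequal at the stages was tested as an interaction over 8 of the 10 genes, and none was called, where 0.00742% of 13485 genes were called. An unadjusted p under 0.05 was found for 1 gene (3.11% of all genes), Irgm2, at 1.15 ± 0.50 on the log2 scale, and DESeq2 called none. Igtp had 1.35 ± 0.65, Irgm1 1.32 ± 0.64 and Tgtp2 1.38 ± 1.19, whereas Gbp2 (-0.42 ± 0.93) and Gbp3 (-0.68 ± 0.81) had values under 0.

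**Figure D5:**
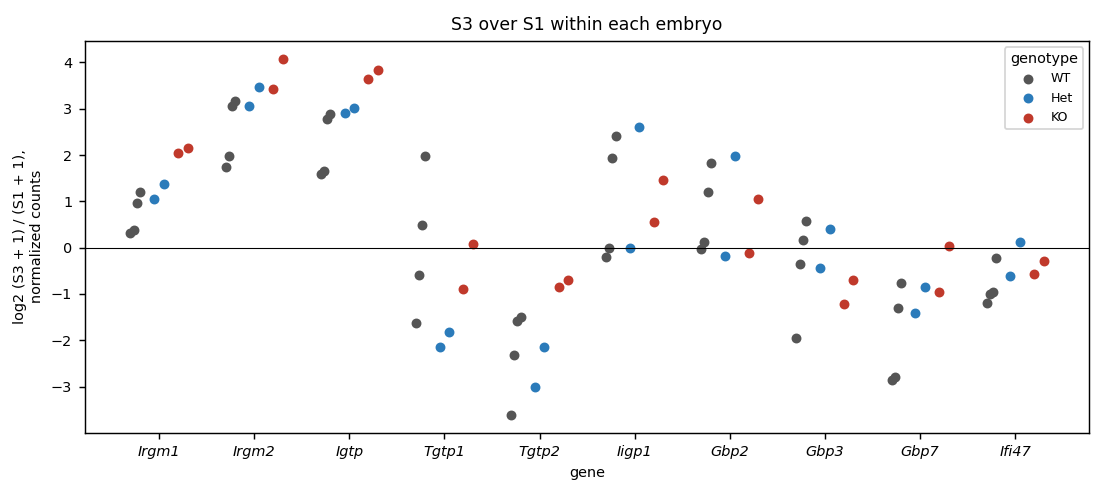
Log2 ratio of S3 to S1 within each of the 8 embryos (normalized counts plus 1), by gene and genotype. Irgm1, Irgm2 and Igtp lie above 0 in all 8 embryos and Tgtp2 below 0 in all 8, and for Irgm1 and Igtp the KO points (2.05 to 3.83) lie above those of the other genotypes.

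Most further interferon-inducible GTPases had few counts. Of 13 other members of these families and of the Mx and Gvin families, 0 passed the filter in KO against WT at S3 and 1, Gvin3, at S1 (-0.39 ± 1.17, not called). Gvin3, a very large GTPase, had 4 to 172 raw counts in the WT libraries at S1 and 0 or 1 at S3, and was called lower at S3 in WT (-6.43 ± 1.57, adjusted p = 0.00439 in edgeR). In Het against WT at S1, Gvin3 (-1.69 ± 1.28) and Gbp9 (0.86 ± 0.79) were tested and not called. Gbp4, another guanylate-binding protein, had 4 to 17 raw counts in the S1 libraries and 0 to 19 at S3.

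The signalling pathway upstream was read from 3 further lists. Of 10 interferon genes, which encode the ligands, 9 had 0 counts in all 16 libraries, and Ifnk had 0 to 5 raw counts at S1 and 0 at S3. A library with 0 counts does not show that no ligand reached the cells, since interferon is secreted and can come from elsewhere. All 7 receptor and kinase genes were tested at S3 and none was called in KO, with a median log2 fold change of -0.17. The smallest unadjusted p belonged to Ifngr2, a chain of the interferon gamma receptor (-0.57 ± 0.18, adjusted p = 0.326 in edgeR), followed by Ifnar1 (-0.23 ± 0.22) and Jak2 (-0.34 ± 0.34).

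Of 10 genes for transcription factors and inhibitors of the pathway, 9 were tested at S3 and 3 were called higher in KO by edgeR, which called 0.457% of all genes higher. These were Usp18, which limits signalling from the type I receptor (3.53 ± 0.58), Irf7, which drives further interferon transcription (2.81 ± 0.45), and Irf9, a subunit of the complex that binds the response element (1.39 ± 0.22). Irf9 had 3590.0, 2937, 4826 and 2652 normalized counts in WT, 4121 and 5541 in Het and 9370 and 8785 in KO, in the same order of embryos, and both KO values lay above all others. Stat2 (0.97 ± 0.31) and Irf1 (0.49 ± 0.71) were not called. At S1 none of the 9 tested was called, with Usp18 at 2.74 ± 0.49 and Irf7 at 1.86 ± 0.44. In Het none was called at either stage.

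The ATG8 conjugation and prenylation genes, which place the GTPases on membranes, were all tested, and 0 of 13 were called in KO or Het at either stage. In KO at S3 their median log2 fold change was 0.06, and the smallest unadjusted p values were those of Atg5 (0.28 ± 0.18), Atg3 (0.21 ± 0.22) and Gabarapl2 (-0.13 ± 0.15). With maturation in WT, 8 of them were called higher and 3 lower, in the comparison in which 30.6% of all genes were called higher and 35% lower. Gabarapl2 rose by 3.61 ± 0.17 and Map1lc3b by 2.85 ± 0.17 on the log2 scale, and Atg5, Atg3 and Fnta fell.

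The genes differed in how closely they moved together. Over the 16 libraries, with the stage mean removed, Pearson's r between pairs of the 8 genes that passed the filter over all libraries ran from 0.434 (Gbp2 and Gbp3) to 0.983 (Irgm1 and Igtp). Gbp2 and Gbp3 followed the mean profile of the set least, at 0.706 and 0.683, and the other 6 lay at 0.935 to 0.978. Among 13402 genes, those outside the set with the profile most like its mean were Usp18 (0.976), Isg15 (0.975), Irf7 (0.973), Rtp4 (0.962) and Oas1a (0.961). These r values are descriptions. Both libraries of an embryo enter them, and each member is part of the mean profile it was set against. Genotype means were not removed, so r also reflects the KO difference that was known when the genes were chosen. Gbp2 and Gbp3 had few counts, at most 32 and 82 raw counts in a library. Gbp2, with group means of 4.19 to 11.4 normalized counts in WT and Het, passed the filter over all libraries only through the KO libraries.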

How the data were processed

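Poly(A)+ RNA of S1 and S3 erythroblasts from 8 embryos was amplified and sequenced (16 libraries). Groups, embryo numbers and sex came from the sample titles. Other label fields give an embryonic stem cell line as the source, and the titles and the study's methods were followed. The authors mapped reads to mm39 with STAR 2.7.9, counted them per gene with featureCounts 1.6.4 and deposited raw counts. Per the file headers, counting ignored strand and dropped multi-mapped reads and reads over more than 1 gene. 4 columns of per-sample values match no sample here and were not used. Of 55416 genes, 54749 were matched to a symbol (GENCODE mouse release 39).

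The members and lists were chosen with earlier results of these data known. Each comparison was fitted on its own libraries with edgeR 4.0.16 (R 4.3.3), by TMM scaling and the quasi-likelihood test. Genes were tested if their mean was above 10 counts normalized over the libraries of that fit. The printed levels were scaled over all 16 libraries, so a printed mean above 10 can belong to a gene that was not tested. P-values were adjusted over all genes tested (Benjamini-Hochberg, threshold 0.05). A standard error is the log2 fold change divided by the root of the F statistic. RPKM used the exon length in the count table. Named were all 10 members, from other lists the genes called or the 3 with the smallest p in KO against WT at S3, some further genes chosen after their values were seen (Gbp4, Stat2, Irf1, Map1lc3b, Fnta), and the 5 genes most alike by Pearson's r. Scripts were tested on simulated data. Alternatives were DESeq2 1.42.0, other scaling, filters and covariates, and leaving out embryos. The same embryo gave both stages, so embryo numbers pair the S1 and S3 libraries. Deviations from the group means correlated between the stages of an embryo at 0.0385 to 0.398 over 13402 genes. 1 gene of the list of transcription factors and inhibitors is not reported here.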

Additional observations from a re-analysis of the deposited data

Results flagged for a closer look

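Among the 4 WT libraries of each stage, the highest or lowest value of a gene was set against the range of the group in 20 groups, and 1 stood apart. Gbp2 at S1 was 15.05 normalized counts in WT embryo 5, whose gap to the next library was 0.857 of the range of the group, above the 95% limit of Dixon's test for 4 libraries. Chance flags about 1 in 20 such groups, and the value rests on 20 raw counts.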

How the results depend on the processing

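Calls are counts of members with an adjusted p under 0.05. For KO against WT at S3 (5, with 0.559% of all genes called), leaving out 1 WT embryo gave 0 to 4, with 0.0921% to 0.359% of all genes. Leaving out WT embryos 0 and 8 together, added after the data were seen, gave 0, with 0.0424% of all genes. Other settings gave 5 or 6, with 0.5% to 5.72% of all genes. For KO against WT at S1 (0), DESeq2 gave 3, edgeR with sex as a covariate 4 and DESeq2 with sex 7. For Het against WT at S3 (0), edgeR without the filter gave 1, edgeR with sex 1 and male embryos alone 2, and at S1 (0) DESeq2 with sex gave 1. For S3 against S1 in WT (5), leaving out 1 embryo gave 2 to 6, and the replicate block, DESeq2, relative log expression factors and no filter each gave 6. The interaction stayed at 0 in every setting tried, the replicate block included. The replicate block changed no other call than that of Irgm1. Direction changed mostly where values were near 0. In Het at S1, Gbp7 was 0.46 with sex in edgeR, 0.46 with sex in DESeq2 and 0.47 in males alone, and Ifi47 0.57, 0.57 and 0.57. Without WT embryos 0 and 8, Igtp was -0.16, Tgtp2 -0.020 and Gbp3 -0.41. With 1 embryo left out, Het at S1 ran from -0.24 to 0.30 for Gbp3, -0.38 to 0.28 for Gbp7, -0.28 to 0.21 for Ifi47, -0.59 to 0.11 for Irgm2, -0.36 to 0.54 for Igtp and -0.085 to 1.14 for Tgtp2. Het at S3 ran from -0.050 to 1.05 for Irgm2 and -0.26 to 1.29 for Gbp7. Gbp3 between stages ran from -0.82 to 0.17. In the interaction, Gbp2 ran from -0.96 to 0.34, and Gbp3 was 0.085 without WT embryos 0 and 8. The causes were not tested. Counts of all genes called in KO at S3 were 66 in the main edgeR test used here and 59 with relative log expression factors. They were 238 in DESeq2 and 356 in edgeR without the filter. With sex as a covariate they were larger, at 547 in edgeR and 663 in DESeq2, and each of these 2 settings called 6 members. Iigp1, Tgtp1 and Gbp2 had too few counts, on the scale of that fit, to pass the filter in KO against WT at S3.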
